A study of Mus musculus with 6 samples.

Results

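The genes described here encode C-type lectins, Fc receptors, Toll-like receptors, LILR and Siglec receptors, MS4A proteins, complement C1q proteins and CD antigens, measured by RNA sequencing in primary mouse Sertoli cells with and without UXT. They were chosen by name (symbols beginning with Clec, Fcgr, Fcer, Tlr, Lilr, Siglec, Ms4a, C1q or Cd followed by a number), together with Itgam, Adgre1, Aif1, Lyz2, Ctss, Tyrobp and Laptm5. Cd36 was left out. This gave 79 of the 3257 genes analysed. RefSeq annotates 203 protein-coding mouse genes under the same rule, and those beyond the 79 were not analysed here.

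Sertoli cells line the seminiferous tubules of the testis and nourish the germ cells, and UXT is a small prefoldin-like protein. Cells of both groups came from C57BL/6 mice, were enriched for Sertoli cells by 24 h of differential plating and were infected 2 times for 24 h each. The WT group (3 libraries) was wild type and received an empty plasmid. The KO group (3 libraries) came from UXT KO animals and received a viral construct with CRE recombinase. Only the KO cells received CRE, so loss of UXT and exposure to the CRE construct cannot be told apart. The age of the animals, the design of the Uxt allele and the promoter that drives CRE are not given in the sources used here. Nor do the labels state whether separate animals or cultures gave the libraries of a group. The p-values thus cover the spread among these 6 libraries alone, and that spread may be technical. No row for Uxt was analysed here, so the genotype labels were not checked against the targeted gene.

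Most of these proteins are receptors of myeloid cells, above all macrophages, which also live in the testis between and around the tubules. C-type lectins and Toll-like receptors recognise sugars, lipids and nucleic acids of microbes or damaged cells, and Fc receptors recognise bound antibody. Many activating receptors have no signalling tail and depend on small adaptors, Fcer1g or Tyrobp, whose tyrosine motifs (ITAMs) recruit the kinase Syk. Inhibitory receptors of the LILR, Siglec and CD300 families carry the opposing motif (ITIM) and recruit phosphatases such as Ptpn6. C1q, made largely by macrophages, starts the classical complement cascade on antibody and dying cells.

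The deposited table held only genes that its authors had already selected from these libraries by fold (1.5 or more) and by adjusted p (under 0.05). A gene was called here when limma gave an adjusted p under 0.05 over all 3257 genes, in the direction of the authors' fold and with that fold at least 1.5. Because of the selection, 99.6% of all genes in the table were called in one direction or the other, so a call is not independent evidence of a change. Values per library are log2 expression values whose differences are smaller than the authors' folds, most of all in weakly expressed genes; they are called moderated here, and the transformation behind them is not given. Among the 815 genes with the lowest mean level, which held 36 of the 79 genes described here, the difference between group means was 0.243 of the log2 fold in the authors' deposited table (median ratio). Among the 814 genes with the highest mean level, which held 3 of them, the ratio was 0.654. Fold sizes are therefore those in the authors' deposited table, and values per library show the spread and the direction. Library medians over all genes were 9.15 to 9.18 in WT and 8.82 to 8.91 in KO, and the depth of the libraries is unknown.

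Transcripts of these families were lower in KO cells almost throughout. Of the 79 genes, 75 were called lower (94.9%), beside 67.5% of all genes in the table, and 4 were called higher (5.06%), beside 32.1%; 11 of the lower genes changed sign when the libraries were scaled to a common median. The 3 KO values lay below the 3 WT values for 73 of the 79 genes, beside 65.8% of the table, and above them for 4, beside 31.7%. The groups overlapped for Cd59a and C1ql3. The median fold of the lower genes was 4.49 in the authors' deposited table, against 2.33 for all lower genes, with a range of 1.53 to 14.7 over the 79. A fall of at least 4-fold in the authors' deposited table was listed for 43 of the 79 (54.4%), beside 13.5% of all genes. The median limma difference (KO minus WT, log2) was -0.72, against -0.40 for all genes. Scaling the libraries to a common median moved all genes by 0.30 towards higher values in KO, and the median difference of the 79 was then -0.43. That median was taken over the selected table alone, where lower genes outnumber higher ones, so this scaling can remove part of a real fall. A lost call or changed sign under it therefore does not show that a gene did not fall. Whether the shift between the groups is technical was not tested. After this scaling 49 of the 79 were called lower and 4 higher. Of all 3257 genes 1024 were called lower and 1047 higher, against 2200 and 1044 as deposited. Cd200r4 (0.135, limma adjusted p 0.0226) and Ms4a4a (0.151, 0.0239) were then above WT. A call needs the authors' direction, so neither these nor the rest of the 11 that changed sign could count as higher. A further 15 kept their direction but lost their call: Aif1, C1ql3, C1qtnf2, Cd109, Cd200, Cd200r1, Cd244, Cd300a, Cd300lb, Cd300lf, Cd59a, Clec5a, Ms4a6b, Siglece and Tlr3.

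**Figure D1:**
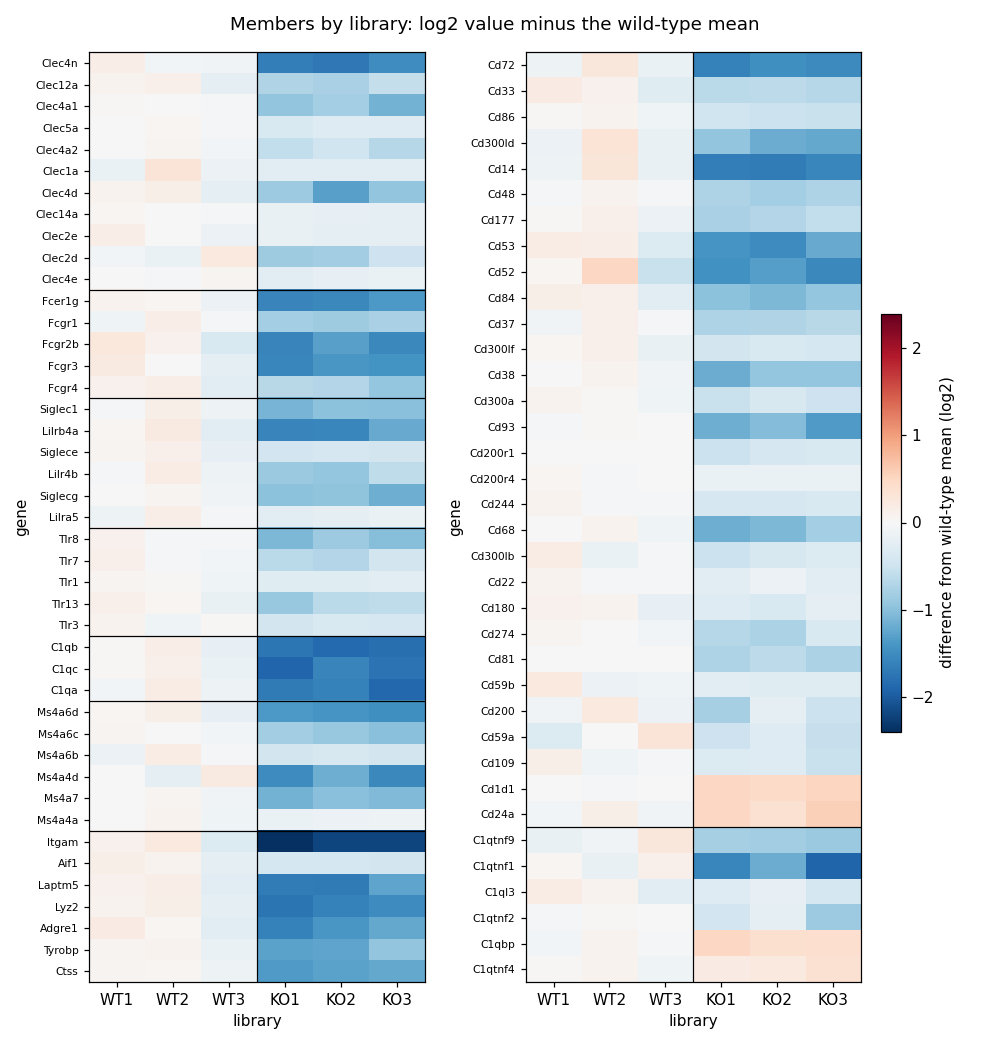
Heat map of the 79 genes in the 6 libraries, as the log2 value minus the mean of the 3 WT libraries (colour scale from -2.4 to 2.4; rows are genes by family, columns are libraries). The KO columns are below the WT mean for 75 genes and above it for Cd24a, Cd1d1, C1qtnf4 and C1qbp; after scaling the libraries to a common median, 11 of the lower genes changed sign.

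By textbook expression, assigned after the values were seen, 57 of the 79 are genes mainly of leukocytes, 3 are endothelial (Clec14a, Clec1a and Cd93) and 19 are expressed more widely or in other cells. All 57 leukocyte genes were called lower, beside 67.5% of the table, with a median fold of 4.99 in the authors' deposited table. Of them 39 (68.4%) fell 4-fold or more, beside 13.5% of the table. After scaling to a common median, Cd180, Cd200r4, Cd22, Clec4e, Lilra5, Ms4a4a and Tlr1 of the 57 changed sign. Aif1, Cd200r1, Cd244, Cd300a, Cd300lb, Cd300lf, Clec5a, Ms4a6b and Siglece of the 57 then lost their call. Of the 19 others, 15 were lower, with a median fold of 2.11 in the authors' deposited table, and the 4 that rose all belong here. RNA was taken from whole cultures, so fewer cells of a type and less RNA per cell cannot be told apart.

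**Figure D2:**
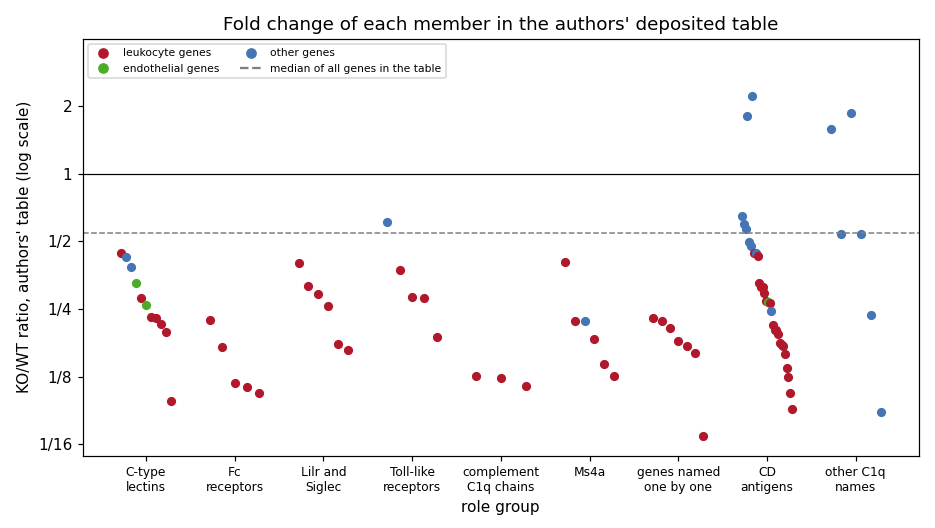
Fold of each of the 79 genes as the KO over WT ratio in the authors' deposited table (log axis), by family, with colour for leukocyte, endothelial and other genes and a dashed line at the median of all table genes. The C1q chains and Fc receptors lie farthest to the low side as families, and Itgam is the lowest point at 14.7-fold. The points above the line at 1 are Cd24a, C1qtnf4, Cd1d1 and C1qbp.

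All 11 C-type lectins in the table were lower in KO, beside 67.5% of all its genes. After scaling to a common median 6 were still called, and Clec1a, Clec14a, Clec2e and Clec4e changed sign. The 11 had folds of 2.25 to 10.3 (median 3.84) in the authors' deposited table. RefSeq annotates 33 genes with C-type lectin names. Clec4n, which encodes the fungal mannan receptor Dectin-2, fell most. Its log2 values were 8.67, 8.46 and 8.43 in WT and 6.85, 6.81 and 7.04 in KO, so every KO library was more than 1 log2 unit below every WT library. The limma difference was -1.62 (SE 0.11, adjusted p 5.72e-06), and the fold in the authors' deposited table was 10.3. Clec4d, a partner of the glycolipid receptor Mincle, was at 9.17, 9.24 and 8.87 in WT against 8.21, 7.80 and 8.15 in KO. The groups again did not overlap, and the fold in the authors' deposited table was 3.55. Mincle itself, Clec4e, was at 4.73, 4.69 and 4.802 in WT and 4.49, 4.54 and 4.58 in KO. Its difference of -0.20 (SE 0.06, limma adjusted p 0.00741) became 0.09 when libraries were scaled to a common median.

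Clec12a, an inhibitory receptor for uric acid crystals, was at 6.23, 6.26 and 5.93 in WT and 5.42, 5.36 and 5.57 in KO, a fold of 5.08 in the authors' deposited table. Clec4a2, an inhibitory lectin, and its neighbour Clec4a1 had folds of 4.34 and 4.65 in the authors' deposited table, with no overlap between groups. These paralogs are similar in sequence, and reads shared between them make the split of their counts uncertain. Clec5a, which pairs with Tyrobp, had a fold of 4.38 in the authors' deposited table and was at 4.64 to 4.74 in WT and 4.32 to 4.37 in KO. Of the endothelial lectins, Clec1a rested on 1 library: it was at 4.14 in WT replicate 2, 3.66 and 3.68 in the other WT libraries and 3.56 in each KO library. Its limma adjusted p was 0.0376 in all and 0.0752 to 0.0874 with any 1 KO library left out, and its difference of -0.27 became 0.03 after scaling to a common median. Clec14a, at 3.73 to 3.82 in WT and 3.56 to 3.60 in KO, changed from -0.19 to 0.11 under the same scaling. Clec2d, a ligand of an inhibitory receptor of NK cells, was at 9.37, 9.28 and 9.68 in WT and 8.59, 8.61 and 8.95 in KO, a fold of 2.35 in the authors' deposited table.

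The Fc receptors and their signalling chain were all lower, beside 67.5% of all genes in the table. The 5 in the table (of 8 annotated in RefSeq) had folds of 4.49 to 9.46 and a median of 8.55 in the authors' deposited table, and each was still called under both other scalings of the libraries. Fcer1g, the common ITAM chain shared by several Fc receptors and by Clec4n, was at 8.37, 8.33 and 8.15 in WT and 6.69, 6.74 and 6.90 in KO. Its limma difference was -1.501 (SE 0.10, adjusted p 7.06e-06), with a fold of 9.46 in the authors' deposited table. Fcgr1, the high-affinity IgG receptor, went from 6.16, 6.41 and 6.21 in WT to 5.44, 5.41 and 5.48 in KO, a fold of 8.86 in the authors' deposited table. Fcgr2b, the inhibitory IgG receptor, was at 8.49, 8.35 and 7.88 in WT and 6.65, 6.94 and 6.70 in KO. Its fold of 8.55 in the authors' deposited table was beside 5.94 for Fcgr3 and 4.49 for Fcgr4, the activating low- and intermediate-affinity receptors. Activating and inhibitory IgG receptors were thus lower alike in direction; the difference between their falls was not tested. These genes are paralogs and share stretches of sequence, so their counts are uncertain to that extent.

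Tyrobp, the second ITAM adaptor, was at 8.87, 8.90 and 8.66 in WT and 7.53, 7.53 and 7.86 in KO. The groups stood apart, with a limma difference of -1.17 (SE 0.12, adjusted p 4.88e-05) and a fold of 4.52 in the authors' deposited table. Further down this pathway, 24 of 35 listed genes for ITAM adaptors, kinases and signalling were in the table. Of these 22 were called lower (91.7%, beside 67.5% of the table) and 2 higher (15 and 2 after scaling to a common median). Their median difference was -0.71, against -0.40 for all genes. The largest folds in the authors' deposited table were 8.35 for Lcp2, an adaptor downstream of Syk, 7.47 for Trem1, a receptor that pairs with Tyrobp, and 6.53 for Ptpn6, the phosphatase recruited by ITIM receptors. Of the higher genes, the ubiquitin ligase Cblb, named after its values were seen, had a fold of 1.51 in the authors' deposited table.

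All 6 LILR and Siglec genes in the table were lower, beside 67.5% of all its genes. After scaling to a common median 4 of the 6 kept their call and Lilra5 changed sign. Siglec1, the sialic acid receptor sialoadhesin of macrophages, was at 7.45, 7.62 and 7.35 in WT and 6.35, 6.49 and 6.48 in KO. The limma difference was -1.03 (SE 0.10, adjusted p 3.45e-05), with a fold of 6.07 in the authors' deposited table. Lilrb4a, an inhibitory receptor, was at 9.45, 9.61 and 9.13 in WT and 7.81, 7.84 and 8.18 in KO, a fold of 5.75 in the authors' deposited table. Its near-identical neighbour Lilr4b had a fold of 3.42 in the authors' deposited table, and the split of reads between the pair is uncertain. Siglecg was at 10.90, 10.95 and 10.80 in WT and 9.90, 9.92 and 9.70 in KO, a fold of 3.17 in the authors' deposited table. Siglece, an inhibitory Siglec of myeloid cells, had a fold of 3.89 in the authors' deposited table and no overlap between groups. Lilra5 had small differences on this scale (3.93 to 4.21 in WT, 3.80 to 3.89 in KO), was no longer called without KO replicate 1 (limma adjusted p 0.0617), and its difference of -0.21 became 0.09 after scaling to a common median.

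All 5 Toll-like receptors in the table (of 12 annotated in RefSeq) were lower, beside 67.5% of all its genes. After scaling to a common median 3 were still called, and Tlr1 changed sign. Folds were 1.64 to 5.31 in the authors' deposited table, and 4 of the 5 recognise nucleic acids inside endosomes. Tlr8 was at 7.66, 7.50 and 7.50 in WT and 6.47, 6.69 and 6.54 in KO, with a limma difference of -0.99 (SE 0.10, adjusted p 4e-05) and a fold of 5.31 in the authors' deposited table. Its X-linked neighbour Tlr7, a sensor of single-stranded RNA, was at 6.51, 6.34 and 6.31 in WT and 5.74, 5.69 and 5.95 in KO, a fold of 3.56 in the authors' deposited table. Tlr13, a sensor of bacterial ribosomal RNA, had a fold of 2.67 there, and Tlr3, the sensor of double-stranded RNA that non-immune cells also express, had the smallest at 1.64. Tlr1, which pairs with Tlr2 on bacterial lipopeptides, was at 4.55 to 4.71 in WT and 4.34 to 4.39 in KO, and its difference of -0.28 became 0.01 after scaling to a common median. Of 31 listed co-receptors and signalling genes of this pathway, 11 were in the table, 9 lower (81.8%, beside 67.5% of the table) and 2 higher. Their median difference was -0.48, against -0.40 for all genes. After scaling to a common median 3 of the 11 were called lower and 2 higher, beside 1024 and 1047 of all 3257 genes. The lower ones were led by Ly86, the partner of Cd180, at 4.42-fold, the lipopolysaccharide-binding protein Lbp at 4.17-fold and the inhibitory receptor Sigirr at 3.79-fold, folds again from the authors' deposited table. Sigirr stood at 4.85 in WT replicate 2 against 4.26 and 4.38 in the other WT libraries, and was not called without any 1 KO library (limma adjusted p 0.0561 to 0.0621) or under either other scaling (0.301 and 0.746). Ly86 was not called after scaling to a common median. Both higher genes, named after their values were seen, were the adaptors Tirap (1.96-fold) and Traf3 (1.56-fold in the authors' deposited table).

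The 3 chains of complement C1q were all lower, with folds of 7.94 to 8.81 in the authors' deposited table. C1qb was at 9.99, 10.13 and 9.77 in WT and 8.23, 8.11 and 8.15 in KO, a limma difference of -1.81 (SE 0.11, adjusted p 4.13e-06). C1qc was at 9.94, 10.06 and 9.77 in WT and 8.03, 8.34 and 8.15 in KO. C1qa was at 9.88, 10.13 and 9.83 in WT and 8.25, 8.32 and 8.06 in KO. No KO library came within 1 log2 unit of a WT library for any of these chains, and all 3 remained called under both other scalings. C1q needs all 3 chains for assembly. Among 22 other listed complement components and receptors, 11 were in the table and all 11 were called lower, beside 67.5% of the table (median difference -0.81). After scaling to a common median 9 were still called. They were led by properdin (Cfp, 7.03-fold), the anaphylatoxin receptor C5ar1 (6.04-fold) and factor I (Cfi, 4.77-fold), all folds from the authors' deposited table.

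The 6 MS4A genes, membrane proteins that include several macrophage markers, were all lower, beside 67.5% of all genes in the table. After scaling to a common median 4 were still called, and Ms4a4a changed sign. Folds of the 6 were 2.46 to 7.98 (median 4.99) in the authors' deposited table. Ms4a6d was at 8.46, 8.55 and 8.21 in WT and 7.04, 6.999 and 6.94 in KO, a limma difference of -1.42 (SE 0.11, adjusted p 1.11e-05) and a fold of 7.98 in the authors' deposited table. Its close copies Ms4a6c and Ms4a6b had folds of 7.04 and 5.44 there, with counts that are uncertain where reads are shared. Ms4a7 was at 8.45, 8.49 and 8.35 in WT and 7.29, 7.43 and 7.38 in KO (4.52-fold in the authors' deposited table). Ms4a4d, classed here with genes not mainly of leukocytes, was at 11.29, 11.09 and 11.51 in WT and 9.79, 10.13 and 9.75 in KO, a fold of 4.53 in the authors' deposited table. Ms4a4a, at 3.21 to 3.40 in WT and 3.15 to 3.18 in KO, was no longer called without KO replicate 1 (limma adjusted p 0.058) or KO replicate 2 (0.0516), and its difference of -0.14 became 0.15 after scaling to a common median.

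The 7 leukocyte genes chosen one by one had folds of 4.39 to 14.7 in the authors' deposited table. Itgam, the alpha subunit of complement receptor 3 and a standard marker of myeloid cells, fell most of all 79 genes. It was at 10.37, 10.50 and 9.94 in WT and 7.84, 8.07 and 8.06 in KO, a limma difference of -2.28 (SE 0.15, adjusted p 4.89e-06) and a fold of 14.7 in the authors' deposited table. The macrophage marker Adgre1 was at 10.66, 10.53 and 10.22 in WT and 8.86, 9.07 and 9.23 in KO, a fold of 4.88 in the authors' deposited table. Lyz2, the lysozyme of macrophages and neutrophils, was at 14.52, 14.59 and 14.23 in WT and 12.69, 12.83 and 12.93 in KO, a fold of 5.54 in the authors' deposited table. Laptm5, a lysosomal protein of blood cells, and Ctss, the cathepsin that trims the class II invariant chain, had folds of 5.85 and 4.39 there. Aif1, an actin-binding protein of macrophages, had a narrow range on this scale (4.69 to 5.05 in WT, 4.47 to 4.49 in KO) with a fold of 6.27 in the authors' deposited table, and was no longer called after quantile normalization (limma adjusted p 0.0655) or scaling to a common median (0.221).

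**Figure D3:**
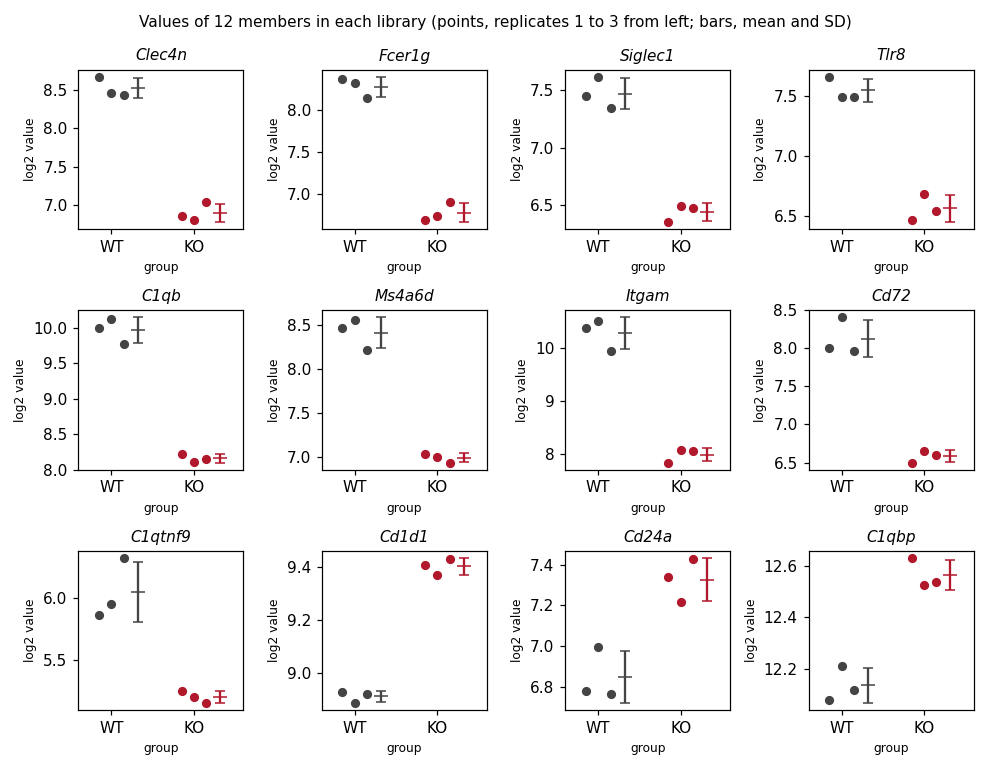
Log2 values of 12 genes in each of the 6 libraries (points), with the mean and SD of the 3 libraries per group (bars). KO points lie below all WT points for the 9 lower genes shown, and above them for Cd1d1, Cd24a and C1qbp.

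The CD antigens, the largest group with 30 genes, hold receptors of many kinds. Of these, 28 were lower (93.3%, beside 67.5% of the table) and 2 higher (6.67%, beside 32.1%). After scaling to a common median 16 were called lower and 2 higher, beside 1024 and 1047 of all 3257 genes. Under that scaling Cd180, Cd200r4, Cd22 and Cd59b changed sign. Cd72, an inhibitory receptor, was at 8.01, 8.41 and 7.97 in WT and 6.50, 6.65 and 6.60 in KO, a limma difference of -1.55 (SE 0.13, adjusted p 1.55e-05) and a fold of 11.1 in the authors' deposited table. Cd33, a Siglec of myeloid cells, was at 5.74, 5.65 and 5.27 in WT and 4.91, 4.92 and 4.86 in KO, a fold of 9.5 in the authors' deposited table. Cd86, a costimulatory ligand of antigen-presenting cells, had a fold of 8.02 there, at 5.06 to 5.24 in WT and 4.62 to 4.69 in KO. Cd14, the lipopolysaccharide co-receptor, was at 10.57, 10.97 and 10.51 in WT and 9.03, 9.01 and 9.13 in KO, a fold of 6.35 in the authors' deposited table. All 4 of the Cd300 family genes in the table, paired activating and inhibitory lipid receptors, were lower, from 3.05-fold for Cd300lb to 7.34-fold for Cd300ld in the authors' deposited table, but Cd300a, Cd300lb and Cd300lf were no longer called under either other scaling (limma adjusted p 0.0568 to 0.547). The SLAM-family genes Cd48, Cd84 and Cd244, receptors by which leukocytes contact each other, had folds of 5.86, 4.99 and 3.18 there, with no overlap between groups. Cd52 varied most within WT, at 7.28, 7.72 and 6.68 (SD 0.52), yet lay above the KO values of 5.78, 5.90 and 5.68.

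Smaller falls were listed for CD antigens found on many cell types. The tetraspanin Cd81 was at 15.11, 15.11 and 15.13 in WT and 14.38, 14.48 and 14.36 in KO, a fold of 2.11 in the authors' deposited table. Cd274, the inhibitory ligand of T cells, had a fold of 2.24, and Cd109, a coreceptor for transforming growth factor beta, a fold of 1.53 in the authors' deposited table. Cd200 and its receptor Cd200r1, an inhibitory ligand and receptor pair, had folds of 1.76 and 3.68 there. Cd59a and Cd59b, paralogs that inhibit the complement membrane attack complex, had folds of 1.67 and 2.01 there. Cd59a was at 10.44, 10.78 and 11.08 in WT and 10.27, 10.45 and 10.21 in KO, so KO replicate 2 lay within the WT range, and it was no longer called without WT replicate 3 (limma adjusted p 0.0547). Cd59b was called with all 6 libraries (adjusted p 0.0266) but not without WT replicate 1 or any KO library (0.0557 to 0.0653), and its difference of -0.28 became 0.02 after scaling to a common median. Cd180, a Toll-like receptor homologue, was not called without KO replicate 2 (0.0505), and its difference of -0.29 became 0.003 under that scaling.

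Only 4 of the 79 genes were called higher in KO (5.06%, beside 32.1% of the table). None was among the 57 leukocyte genes, a class assigned after the values were seen. Cd24a, a mucin-like surface protein of epithelial and immature cells, was at 6.78, 6.995 and 6.77 in WT and 7.34, 7.22 and 7.43 in KO. Its limma difference was 0.48 (SE 0.10, adjusted p 0.00197) and its fold 2.23 in the authors' deposited table. Cd1d1, which presents lipids to natural killer T cells, was at 8.93, 8.89 and 8.92 in WT and 9.41, 9.37 and 9.43 in KO, a fold of 1.81 in the authors' deposited table. C1qbp, a mitochondrial matrix protein that binds C1q in vitro and has no C1q domain, was at 12.08, 12.21 and 12.12 in WT and 12.63, 12.52 and 12.54 in KO, a fold of 1.58 in the authors' deposited table. C1qtnf4 was at 5.86, 5.91 and 5.74 in WT and 6.03, 6.06 and 6.20 in KO (1.86-fold in the authors' deposited table), and was not called without KO replicate 3 (limma adjusted p 0.0501). The direction of all 4 was the same under both other scalings. Scaling to a common median raises KO against WT for every gene, however, so it could not reverse them. Quantile normalization also moved the median of all genes that way, by 0.26.

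The remaining genes with C1q names encode secreted proteins with a C1q-like domain rather than complement chains. C1qtnf9 was at 5.86, 5.95 and 6.32 in WT and 5.25, 5.20 and 5.15 in KO, a fold of 11.5 in the authors' deposited table, the second largest of the 79. C1qtnf1 was at 11.21, 10.99 and 11.27 in WT and 9.59, 9.97 and 9.24 in KO, a fold of 4.27 there. C1qtnf2 had a fold of 1.86 in the authors' deposited table, with a KO SD of 0.34 against a WT SD of 0.03. C1ql3 was at 6.71, 6.61 and 6.28 in WT and 6.23, 6.33 and 6.11 in KO, so the groups overlapped, and it was not called without WT replicate 1 or 2 or KO replicate 1 or 3 (limma adjusted p 0.0676 to 0.119). Its difference of -0.31 became 0.14 after quantile normalization.

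Most listed genes that regulate macrophages were lower in the values as deposited, with exceptions. Of 19 listed regulators and growth factor receptors, 15 were in the table, 13 lower (86.7%, beside 67.5% of the table) and 2 higher. Their median difference was -0.54, against -0.40 for all genes. After scaling to a common median 6 of the 15 were called lower and 2 higher, beside 1024 and 1047 of all 3257 genes. The chemokine receptor Cx3cr1 had a fold of 7.65 and the interleukin 10 receptor chain Il10ra one of 5.41, both in the authors' deposited table, and Cx3cr1 was not called after scaling to a common median. The myeloid transcription factor PU.1 (Spi1) was lower by 3.81-fold and its target Csf1r, the receptor for macrophage growth factor, by 3.03-fold there. The 2 higher genes were the transcription factors Cebpa (2.13-fold) and Maf (1.61-fold in the authors' deposited table). These 4 were named after their values were seen. All 20 of the 27 listed genes for the phagocyte oxidase, scavenger receptors and leukocyte cytoskeleton that were in the table were lower. Of these 16 were still called after scaling to a common median. They were led by the GTPase Rac2 at 9.52-fold, the formyl peptide receptor Fpr1 at 7.75-fold and Dock2 at 7.56-fold (the authors' deposited table). All 6 of the 13 leukocyte integrin and selectin ligand genes in the table were lower too, with 3 still called after that scaling. These 6 were led by Spn (5.79-fold), the partner chain of Itgam, Itgb2 (5.28-fold), and Selplg (4.45-fold in the authors' deposited table).

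Promoters were searched for the core site of PU.1, GAGGAAGT, and its shorter form GAGGAA, which lies inside it, on both strands, in RefSeq windows (GRCm38.p6) from 250 bases before to 50 after each start. Only 60 of the 79 genes had a promoter in the table (75.9%, under the 80% needed), so a comparison of shares is void and the matches are given only as a description. The longer site was in a promoter of 9 of these 60 genes and of 3.69% of all 27025 genes with a promoter. The shorter was in a promoter of 35 of the 60 genes and of 31.3% of all. A gene was counted if any of its promoters matched, and some have more than 1 (Tlr1 has 2). The 9 were Cd72, Cd300ld, Cd53, Cd37, Cd300lf, Fcgr4, Tlr1, C1qc and Ctss. A match is a stretch of letters and not a shown binding site. The 80 bases around the match are printed for the 3 of these genes whose window lay wholly outside the annotated gene, to show where the site stands in an Fc receptor, a complement chain and a CD300 receptor; each reads 5′ to 3′ on the strand of its gene, with the site in capitals (ACTTCCTC is GAGGAAGT on the other strand).
Fcgr4: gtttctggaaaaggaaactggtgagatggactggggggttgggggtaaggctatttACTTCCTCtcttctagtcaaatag
C1qc: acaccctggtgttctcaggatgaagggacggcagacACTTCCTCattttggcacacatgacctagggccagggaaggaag
Cd300ld: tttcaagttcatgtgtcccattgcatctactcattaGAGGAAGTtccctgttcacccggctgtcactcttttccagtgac

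The Fcgr4 window lies at chr1:171018846-171018925 on the plus strand, with the site starting 24 bases upstream of the start. The C1qc window is chr4:136893066-136893145 on the minus strand, with the site 195 bases upstream of the start used in the promoter table, which lies inside the annotated gene. The Cd300ld window is chr11:114989986-114990065 on the minus strand, with the site 143 bases upstream.

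Many of the lower genes are neighbours. Outside chromosome 18, 45 of the 79 lay within 1 Mb of another of them, in 13 clusters. All 45 were called lower, beside 94.9% of the 79 and 67.5% of the table, but 7 of them (Cd200r4, Cd22, Cd59b, Clec1a, Clec2e, Clec4e and Ms4a4a) changed sign after scaling to a common median. The largest cluster, chr1:170960558-171890718 (GRCm38.p6), held 7 genes, Fcgr2b, Fcgr4, Fcgr3, Fcer1g, Cd244, Cd48 and Cd84, with folds of 3.18 to 9.46 in the authors' deposited table. The 6 MS4A genes lay at chr19:11321039-11604804. On chromosome 6, the 5 Clec4 genes lay at chr6:122921848-123289871, with folds of 2.25 to 10.3 in the authors' deposited table, and Clec2e, Clec2d, Clec12a and Clec1a at chr6:129091816-129452000. The C1q chains lay at chr4:136880126-136898844 and the 4 Cd300 genes at chr11:114889152-115135372. Such families arose by duplication, so neighbours are not independent of each other. In the GENCODE M21 annotation, 20 of the 79 overlap a gene on the opposite strand (Cd72 with Tesk1 and Cd37 with Tead2, for example) and 9 overlap another protein-coding gene. The library kit keeps strand, but the use of strand in counting was not given in the sources used here, so values of overlapping genes are uncertain.

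Markers of other cell types moved as well. Their counts stand beside 67.5% of all genes in the table called lower and 32.1% called higher. Of the 25 listed Sertoli markers 18 were in the table, all lower, with a median fold of 3.54 in the authors' deposited table (Shbg 17.2, Cst12 7.94, Trf 6.33), and 11 of the 18 were still called after scaling to a common median. Their summed level (log2 of the sum of the values on a linear scale) was 17.10 to 17.52 in WT and 15.86 to 16.29 in KO, so Sertoli transcripts were measured in both groups. Most of this sum is Clu, at 16.56 to 17.06 in WT and 15.36 to 15.84 in KO. For the 57 leukocyte genes described here, that sum was 15.19 to 15.52 in WT and 13.83 to 13.998 in KO. By far the largest part of it is Lyz2, at 14.23 to 14.59 in WT and 12.69 to 12.93 in KO. Of 20 endothelial markers 18 were in the table, all lower, with a median fold of 14.2 in the authors' deposited table (Dll4 124, Gpihbp1 68.2, Vwf 51.8) and summed levels of 14.03 to 14.14 in WT and 13.19 to 13.39 in KO. The endothelial sum is carried mainly by Eng and Cdh5, whose folds of 1.85 and 1.73 in the authors' deposited table are far below that median. The 8 of 11 peritubular myoid and 5 of 11 fibroblast markers in the table were also lower, and all 4 of 10 Leydig markers were higher (Hsd3b1 5-fold in the authors' deposited table). None of 18 T and NK cell or 8 B cell markers was in the table. Nor was any of 16 chosen CD antigens of T or B cells. That list of 16 was made after the values were seen and left out Cd22 and Cd72, which B cells also carry. Both were called lower (2.33- and 11.1-fold in the authors' deposited table), and Cd22 changed sign after scaling to a common median. Neutrophil, dendritic cell, mast cell and red blood cell lists had 1 gene each in the table, all lower: Mmp9, H2-Ab1, Kit and Alas2. Of the 14 germ cell markers, Sycp3 was lower and Uchl1 higher, and Sycp3 changed sign under both other scalings. No marker in the table was listed at 0. Moderated values of weakly expressed genes also stay above 0 (Hcst at 2.71 to 2.73 in KO), so this does not show that a transcript persisted. The part of these cell types in the results was not tested.

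Within the WT group, the leukocyte genes were mostly lowest in the same library. WT replicate 3 had the lowest of the 3 WT values for 47 of the 57 leukocyte genes (82.5%), for 7 of the 19 other genes (36.8%) and for 35.4% of all genes in the table. The median deviation from the WT mean over the 57 was 0.06, 0.09 and -0.13 in WT replicates 1, 2 and 3. In the KO group it was -0.04, 0.01 and 0.03. Peritubular myoid markers had the same order: WT replicate 3 was the lowest for 7 of the 8 in the table (87.5%), with a median deviation of -0.21. WT replicate 1 was instead the lowest for 13 of the 18 Sertoli markers (72.2%). Without WT replicate 3, 74 of the 79 genes were called lower and the median difference was -0.78. The deviations are small beside the differences between groups, and their part in the results was not tested beyond leaving out each library.

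**Figure D4:**
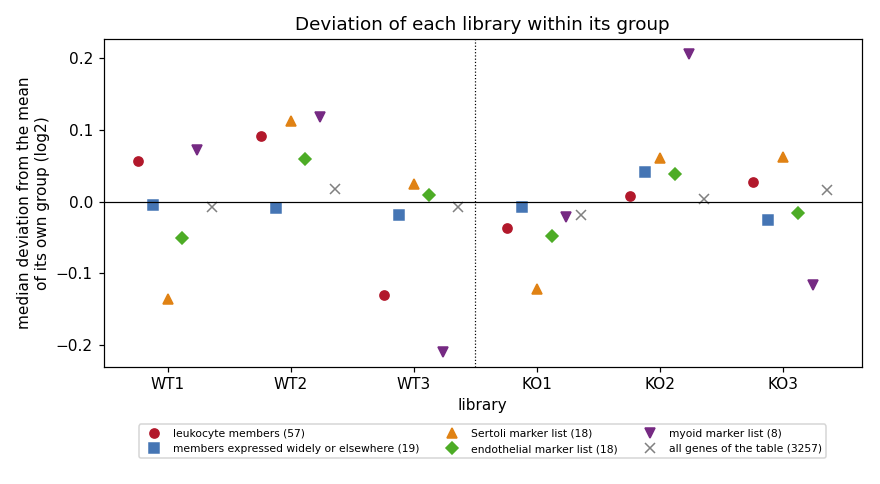
Median deviation of each library from the mean of its own group (log2), for the 57 leukocyte genes, the 19 other genes, the Sertoli, endothelial and peritubular myoid markers and all 3257 genes. WT replicate 3 lies at -0.13 for the leukocyte genes, at -0.21 for the myoid markers and at -0.01 for all genes.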

How the data were processed

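RNA-seq of 6 libraries (3 WT, 3 KO) was used as 1 deposited table. Stranded mRNA libraries were made per the labels' protocols. Per the submitters' processing notes, FastQC, STAR, DESeq2 and mm10 were named, with no version. The counter, the annotation and strand use are not given in the sources used here. In their table the authors deposited log2 values per library and log2 fold changes, a signed fold score (ratio, negative for lower genes), and p-values with adjusted p-values. The transformation behind the log2 values is likewise not given. There were 3261 rows, of which those of 2 symbols on repeated rows (4 in all) were left out, leaving 3257 genes. Every gene had an authors' adjusted p of at most 0.0499 and a fold of at least 1.5.

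Genes were tested with limma 3.58.1 (R 4.3.3, mean-variance trend, no covariate), adjusted by Benjamini-Hochberg over all 3257 genes. The script was checked on simulated data with known changes. No pseudocount was needed, since values were already log2, although the design had provided for linear values. Depth was unknown, so no counting interval was computed. Genes, lists and tests were chosen with earlier results of these data known. In each family the up to 6 genes with the largest authors' fold, every higher gene, and up to 3 genes of each other list were named by rule; further genes were named after their values were seen. Coordinates come from RefSeq GRCm38.p6, matched for all 79 genes by gene ID, and overlaps from GENCODE M21. Alternatives were quantile normalization, median centring, a filter on low values, no trend, a stricter adjusted p of 0.01, a replicate block and leaving out each library. Some genes of the other lists are not reported here.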

Additional observations from a re-analysis of the deposited data

How the results depend on the processing

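Scaling and a filter on low values changed the counts. Both scalings were computed over the selected genes alone, of which most were lower. A gene that changed sign could not be called higher under them, since a call needs the authors' direction. Genes of the table called lower were 2200 as deposited, 1143 after quantile normalization and 1024 after median centring, while 1047 were called higher under both against 1044, and these scalings moved the median of all genes by 0.26 and 0.30. Of the 79 genes, 75 were called lower as deposited, 50 after quantile normalization, 49 after median centring, 40 with a filter on low values, 67 at an adjusted p under 0.01, 73 without the trend, and 70 to 74 with 1 library left out. Their median difference was -0.72 as deposited, -0.34 after quantile normalization, -0.43 after centring, -1.06 with the filter, -0.695 to -0.780 with 1 library left out, and -0.91 for the 57 leukocyte genes alone, an alternative chosen after seeing the data. The filter kept 2443 genes with a mean of at least 6.826, among them 43 of the 79, and none of those 43 lost its call. Called higher were 3 to 4 with 1 library left out.

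By family, quantile normalization, centring and the filter gave 6, 6 and 4 lower C-type lectins, 17, 16 and 12 CD antigens, 2, 3 and 3 Toll-like receptors, and 2, 2 and 2 other C1q names. The filter gave 3 Fc receptors and 3 MS4A genes. Of other C1q names 1 was higher with the filter and at 0.01, and 1 to 2 with 1 library left out. Of the lists, Toll-like receptor signalling had 5 and 3 lower genes after quantile normalization and centring, macrophage regulators 5, 6 and (filter) 8, leukocyte integrins 3 (centring) and 2 (filter), Sertoli markers 11 (centring), fibroblast markers 3 and 3, and germ cell markers 0, 0 and (filter) 0.

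After quantile normalization 4 of the 79 changed sign (C1ql3 0.14, Cd180 0.064, Cd59b 0.106, Clec4e 0.027) and 21 lost their call. After centring 11 changed sign (Cd180 0.003, Cd200r4 0.135, Cd22 0.069, Cd59b 0.019, Clec14a 0.106, Clec1a 0.027, Clec2e 0.082, Clec4e 0.092, Lilra5 0.088, Ms4a4a 0.151, Tlr1 0.012) and 15 lost their call; Sycp3 was at 0.009 and 0.106 under these. Replicate numbers did not pair the libraries (correlations of same-numbered deviations 0.177, -0.073 and -0.004). With a replicate block 75 were lower and 4 higher among the 79, and 2207 and 1045 in the table. The pseudocount alternative was not run. No gene beyond the selected table was analysed here, and the moderated values understate differences of weakly expressed genes.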
